A study of Homo sapiens with 3 samples.

Results

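The genes described here are 10 chromatin and nuclear lamina genes whose expression is commonly tied to proliferation, out of 58039 genes listed in the series. They were chosen by name, with earlier results of these data known, and each name had 1 entry in the deposited table. The gene lists set beside them were chosen with the same knowledge. Counts set against all genes tested are therefore description and not independent of the data. The group holds the high mobility group genes HMGB1, HMGB2, HMGB3, HMGA1 and HMGN2, the histone H2A variant genes H2AFZ and H2AFX, and the lamin genes LMNB1, LMNB2 and LMNA. All 10 passed the filter on low values, a mean FPKM (fragments scaled to transcript length and library size) of at least 1 over the libraries, as did 13112 genes in all. The RNA came from T47D, a human line of luminal breast cancer that carries the estrogen receptor. There were 3 libraries, namely 1 control (a control hairpin by its description, although its shRNA label reads None) and 1 library each of cells with shRNA1 or shRNA2, 2 hairpins against the long noncoding RNA ERINA. Per the labels, the hairpins entered the cells on lentiviral vectors, and puromycin was used to keep stably infected cells. Whether the selected cells were pools or clones is not given in the sources used here. The genotype label joins shRNA1 and shRNA2 as ERINA knockdown, so that group has n = 2 with different hairpins and the control has n = 1.

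ERINA itself, listed as LINC00992, was at 63.4 FPKM in control cells, 5.21 with shRNA1 and 8.91 with shRNA2, which goes with the labels. The luminal epithelial markers KRT8, KRT18, KRT19, EPCAM, CDH1, ESR1, PGR, GATA3 and FOXA1 were all detected, at 16.5 FPKM or more in each library. The summed level of 4 leukocyte markers was at most 0.323 FPKM and that of 3 endothelial markers at most 0.0437. Of 6 fibroblast markers COL3A1 was at 0 in each library, and the sum ran from 3.99 to 6.16 FPKM. From control to shRNA1 to shRNA2, COL1A1 in that list was at 5.16, 1.65 and 2.1 FPKM, LUM at 0.842, 1.05 and 1.57, and DCN at 0.0227, 1.25 and 0.663, so of these 3 markers 1 was lower and 2 were higher with both hairpins. Their part in any result was not tested. The sum of 5 basal markers ran from 10.8 to 13.0 FPKM, mostly from ACTA2. The files hold no counts, so precision was read from the confidence bounds deposited with each FPKM, whose confidence level is not stated. For these 10 genes the upper bound lay 33.0% to 54.1% above the FPKM.

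High mobility group proteins are abundant non-histone proteins that bend or loosen DNA on nucleosomes. HMGB proteins bend DNA through paired HMG boxes, HMGA proteins bind AT-rich DNA through short hooks, and HMGN proteins bind the nucleosome core. H2A.Z and H2A.X replace canonical H2A in part of the nucleosomes, the former at promoters and the latter as the substrate of damage-induced phosphorylation. Lamins form the filament mesh under the inner nuclear membrane. B-type lamins stay farnesylated and membrane-bound, whereas lamin A is cleaved to its mature form. HMGB2 and LMNB1 are transcribed more in cycling cells, and low LMNB1 is a common mark of cells that have left the cycle for good.

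In the control the order from the highest level was H2AFZ, LMNA, HMGN2, HMGB1, HMGB2, H2AFX, HMGA1, HMGB3, LMNB1 and LMNB2, in FPKM, a scale per length. H2AFZ was at 303 FPKM and LMNB2 at 28.9, which is the 97.8th and the 73.6th percentile of genes tested. Each of the 9 neighbouring pairs in this order had overlapping deposited intervals, so no neighbours were told apart. HMGB1 went from rank 4 in the control to rank 7 with each hairpin, and HMGA1 from rank 7 to rank 4 with shRNA1 and 6 with shRNA2.

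**Figure D1:**
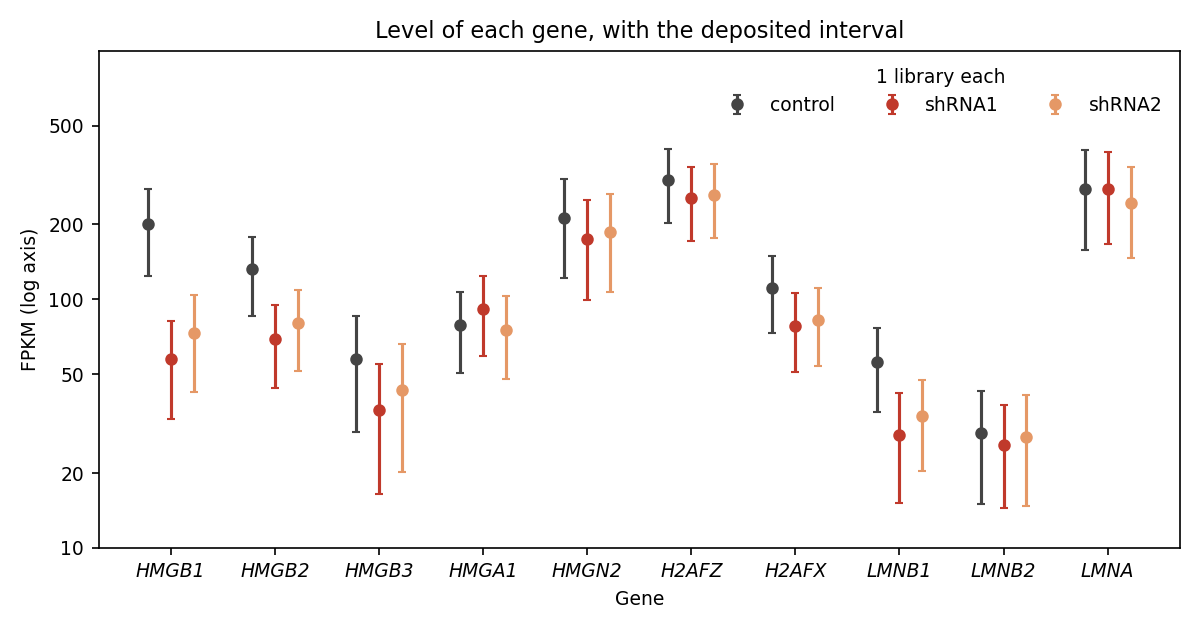
Level of each of the 10 genes in FPKM (log axis) in the control, shRNA1 and shRNA2 libraries, 1 library each. Points are the deposited FPKM and bars the deposited confidence bounds. HMGB1 is the gene whose bars with both hairpins, up to 81.9 and 104, end below the control bar, which starts at 124.

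Of the 10 genes, 8 were below the control with both hairpins, against 42.6% of all genes tested, and none was above it with both, against 42.4%. Their median difference from control on the log2(FPKM + 0.5) scale was -0.35, beside 0 over all genes tested. Differences were largest for HMGB1, LMNB1, HMGB2, HMGB3 and H2AFX, in that order. HMGN2 and H2AFZ were slightly lower, and LMNB2, LMNA and HMGA1 were close to the control. In bulk RNA, fewer cells of a type and less RNA per cell cannot be told apart.

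None of the 10 passed limma over all genes at a Benjamini-Hochberg adjusted p of 0.05, a test that called 0.267% of genes lower and 0.0839% higher. ERINA, the targeted RNA, did not pass that limma fit either, with a Benjamini-Hochberg adjusted p of 0.0816. In that fit 5 of the 10 had an unadjusted p under 0.05, beside 3889 of all 13112 genes tested (29.7%). Limma fitted on the 11546 protein-coding genes alone called 11.3% of them lower and 7.11% higher. There, 5 of the 10 fell (HMGB1, HMGB2, HMGB3, H2AFX and LMNB1) and 0 rose. Both fits have 1 residual degree of freedom, which comes from the difference between the hairpins, and the control is assumed to vary like them. An exact permutation of 2 libraries against 1 cannot give a p below 0.333.

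**Figure D2:**
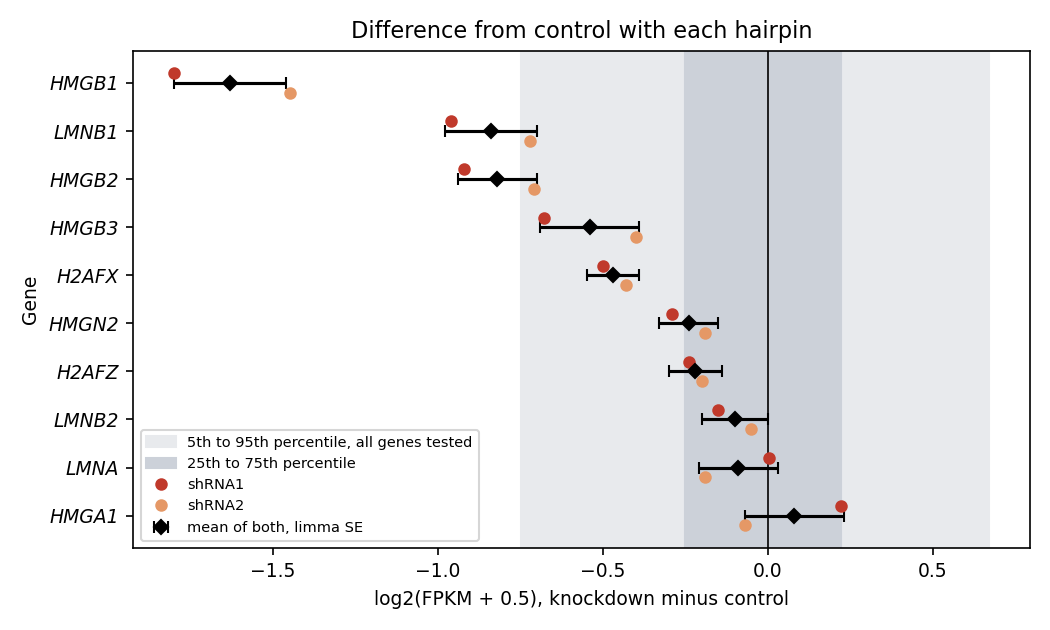
Difference from control on the log2(FPKM + 0.5) scale with shRNA1 and shRNA2 (circles) and their mean with the limma SE (diamonds and bars). Shaded bands span the 25th to 75th percentile (-0.25 to 0.22) and the 5th to 95th percentile (-0.75 to 0.67) over all genes tested. The bands are those of the mean of both hairpins, and the means of HMGB1, LMNB1 and HMGB2 lie left of the outer one. With shRNA2 alone the 5th percentile over all genes tested was -0.68. HMGB1 (-1.45), LMNB1 (-0.72) and HMGB2 (-0.71) were below it with that hairpin.

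HMGB1 encodes the most widely expressed HMGB protein, a DNA-bending factor in the nucleus and an alarm signal once released. It lies at chr13:30456704-30617597 on the minus strand of GRCh38. It stood at 201 FPKM in the control (deposited interval 124 to 277), 57.4 with shRNA1 (32.9 to 81.9) and 73.0 with shRNA2 (42.5 to 104). Both hairpin libraries were far below the control, and neither interval reached that of the control. The ratio of control to hairpin library was 3.5 for shRNA1 and 2.75 for shRNA2. The mean log2 difference was -1.63 (SE 0.17), with a limma Benjamini-Hochberg adjusted p of 0.0816 over all genes and 0.00325 over protein-coding genes, and a range of 0.00325 to 0.231 over the alternatives. Among protein-coding genes it had the 21st lowest value. HMGB1 was the 1 member of 10 whose intervals with both hairpins were clear below the control, a state found in 29 of all genes tested (0.221%). No interval was clear with the bounds widened 1.5 times. HMGB1 overlaps the antisense gene AL353648.1 and the pseudogene PTPN2P2 on the other strand, and whether counting used strand is not stated. It also overlaps the pseudogenes RBM22P2 and MFAP1P1 on the same strand.

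HMGB2 encodes the HMGB protein of cycling and germ cells, and is at chr4:173331695-173335125, minus strand. Its level was 132 FPKM in control cells, 69.4 with shRNA1 and 80.2 with shRNA2. Both hairpin libraries were lower, with intervals (43.9 to 94.9 and 51.4 to 109) that overlapped the control interval (85.5 to 178). The log2 difference was -0.82 (SE 0.12), with a limma Benjamini-Hochberg adjusted p of 0.0831 over all genes, 0.00662 over protein-coding genes, and 0.00662 to 0.241 over the alternatives. HMGB3, the X-linked HMGB gene of progenitor cells at chrX:150980509-150990775, had 57.3 FPKM in control cells, 35.7 with shRNA1 and 43.3 with shRNA2. It was lower with both hairpins, with overlapping intervals. Its log2 difference was -0.54 (SE 0.15), with a limma Benjamini-Hochberg adjusted p of 0.12 over all genes, 0.0301 over protein-coding genes, and 0.0301 to 0.324 over the alternatives.

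HMGB1 also made up less of the HMGB family in the knockdown libraries. The FPKM of HMGB1, HMGB2 and HMGB3 summed to 389.9 in control cells, 162 with shRNA1 and 196 with shRNA2. HMGB1 made up 51.5% of the sum in the control and 36.2% ± 1.29 (SD, n = 2) in knockdown, with 35.3% and 37.2% for the hairpins. HMGB2 made up 33.8% and 41.8% ± 1.33, and HMGB3 14.7% and 22.0% ± 0.0388. HMGB1 was thus 1.52 times HMGB2 in the control, against 0.827 times with shRNA1 and 0.91 times with shRNA2. The depth behind these shares is not known, and with 1 control library the difference was not tested.

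**Figure D3:**
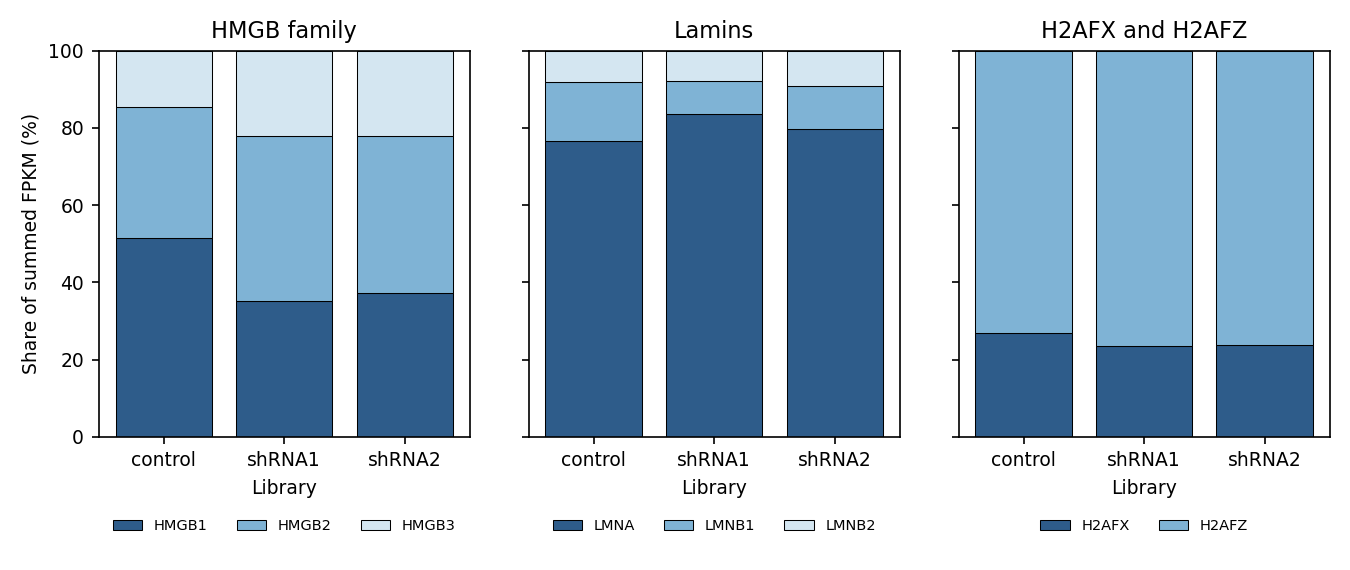
Share of the summed FPKM, in percent, of HMGB1, HMGB2 and HMGB3, of the lamins LMNA, LMNB1 and LMNB2, and of H2AFX and H2AFZ, with 1 bar per library. The HMGB1 segment shrinks from 51.5% to 35.3% and 37.2%, and the LMNB1 segment from 15.4% to 8.55% and 11.1%.

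HMGA1 and HMGN2 passed neither fit. HMGA1, an AT-hook protein frequently high in carcinomas, at chr6:34236873-34246231, had 78.7 FPKM in control cells, 91.7 with shRNA1 and 75.2 with shRNA2. It was higher with 1 hairpin and lower with the other, and all 3 intervals overlapped. Its log2 difference of 0.08 (SE 0.15) had a limma Benjamini-Hochberg adjusted p of 0.745 over all genes (0.609 to 1 over the alternatives), and it became -0.00011 when every library was set to the same total FPKM. HMGN2, a nucleosome-binding protein at chr1:26472450-26475972, was at 213, 175 and 186 FPKM. Both hairpin libraries were slightly below the control, by 0.24 on the log2 scale (-0.24, SE 0.09, limma Benjamini-Hochberg adjusted p of 0.173 over all genes, 0.112 to 0.295 over the alternatives).

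H2AFX and H2AFZ encode the variants H2A.X and H2A.Z. H2AFX, at chr11:119093854-119095467 on the minus strand, was at 111 FPKM in control cells, 78.4 with shRNA1 and 82.5 with shRNA2. The hairpin libraries lay close together and below the control, with intervals that overlapped it. The log2 difference was -0.47 (SE 0.08), with a limma Benjamini-Hochberg adjusted p of 0.0877 over all genes, 0.0179 over protein-coding genes, and 0.0179 to 0.228 over the alternatives. H2AFZ, at chr4:99948086-99950388 on the minus strand, was at 303, 256 and 263 FPKM, a log2 difference of -0.22 (SE 0.08, limma Benjamini-Hochberg adjusted p of 0.172 over all genes, 0.124 to 0.266 over the alternatives). It was below the control with both hairpins by less than H2AFX. Of the FPKM sum of both genes, H2AFX made up 26.8% in the control and 23.6% ± 0.277 (SD, n = 2) in knockdown. H2AFZ overlaps the antisense gene AC097460.1.

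Of the 3 lamin genes, LMNB1 was the 1 that fell in the protein-coding fit. LMNB1, which encodes lamin B1 and lies at chr5:126776623-126837020, was at 56.1 FPKM in the control (35.3 to 76.8), 28.5 with shRNA1 (15.1 to 41.9) and 33.9 with shRNA2 (20.4 to 47.4). Both hairpin libraries were lower, and their intervals overlapped the lower end of the control interval. The log2 difference was -0.84 (SE 0.14), with a limma Benjamini-Hochberg adjusted p of 0.0841 over all genes, 0.00822 over protein-coding genes, and 0.00822 to 0.248 over the alternatives. LMNB2, the gene of lamin B2 at chr19:2427638-2456996 on the minus strand, was at 28.9, 25.9 and 27.9 FPKM, with a log2 difference of -0.1 (SE 0.1). LMNA, the gene of lamins A and C at chr1:156082573-156140089, was at 278, 279 and 243 FPKM, with a log2 difference of -0.09 (SE 0.12). For LMNB2 and LMNA the limma Benjamini-Hochberg adjusted p over all genes was 0.525 and 0.615 (0.482 to 0.728 and 0.355 to 0.819 over the alternatives), and all 3 intervals overlapped in each. LMNB1 was thus 1.94 times LMNB2 in the control, 1.1 times with shRNA1 and 1.21 times with shRNA2. LMNA was 4.96, 9.79 and 7.18 times LMNB1 in control, shRNA1 and shRNA2. LMNB1 made up 15.4% of the lamin FPKM in the control and 9.83% ± 1.81 (SD, n = 2) in knockdown, which was not tested for the same reason. LMNB2 overlaps TIMM13 on the same strand, and reads of the pair may be divided uncertainly.

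Across the group, HMGB1, HMGB2 and LMNB1 were at least 1.5-fold below the control with both hairpins, 3 of 10 against 7.21% of all genes tested. All 8 genes below the control with both hairpins were lower with shRNA1 than with shRNA2, against 70.8% of the 5591 genes tested that were below the control with both. HMGB1 was 1.27-fold higher with shRNA2 than with shRNA1, HMGB3 1.21-fold, LMNB1 1.19-fold and H2AFZ 1.03-fold. In each of the 10 genes the deposited intervals of both hairpins overlapped, and with 1 library per hairpin this order was not tested. ERINA was also lower with shRNA1 than with shRNA2, and a link of this order to its level was not tested.

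Promoter sequences were compared as a description. HMGB1, HMGB3, H2AFX and LMNB1 are shown as genes that fell in the protein-coding fit, a choice made from these same data. HMGN2, H2AFZ and LMNB2 were also lower with both hairpins. A part of the motifs in any difference was not tested. RefSeq windows (GRCh38.p14, from 250 bases before a transcript start to 50 from it) were held for 9 of the 10 genes, all but HMGB2. The words searched on both strands were CCAAT, the NF-Y box, TTTGAA, the cell cycle genes homology region, the E2F words TTTCCCGC and TTTGGCGC, and TATAAA, the TATA box. The windows below are those of HMGB1 (chr13:30465887-30466186, minus strand), HMGB3 (chrX:150983085-150983384, plus), H2AFX (chr11:119095416-119095715, minus), H2AFZ (chr4:99950226-99950525, minus) and LMNB1 (chr5:126776886-126777185, plus), 5′ to 3′, with each match in capitals. H2AFZ is shown as the variant partner of H2AFX that differed less.
HMGB1: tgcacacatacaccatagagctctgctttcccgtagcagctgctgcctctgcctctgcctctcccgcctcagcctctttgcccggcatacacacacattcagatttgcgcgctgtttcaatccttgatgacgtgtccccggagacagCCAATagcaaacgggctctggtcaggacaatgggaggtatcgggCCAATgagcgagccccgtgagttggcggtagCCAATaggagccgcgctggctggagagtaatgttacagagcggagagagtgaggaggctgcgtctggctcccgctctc
HMGB3: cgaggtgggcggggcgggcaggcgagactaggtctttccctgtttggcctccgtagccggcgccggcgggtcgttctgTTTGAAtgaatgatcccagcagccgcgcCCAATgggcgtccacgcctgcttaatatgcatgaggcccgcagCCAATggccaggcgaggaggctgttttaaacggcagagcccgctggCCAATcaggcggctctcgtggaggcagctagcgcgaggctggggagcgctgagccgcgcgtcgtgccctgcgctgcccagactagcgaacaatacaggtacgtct
H2AFX: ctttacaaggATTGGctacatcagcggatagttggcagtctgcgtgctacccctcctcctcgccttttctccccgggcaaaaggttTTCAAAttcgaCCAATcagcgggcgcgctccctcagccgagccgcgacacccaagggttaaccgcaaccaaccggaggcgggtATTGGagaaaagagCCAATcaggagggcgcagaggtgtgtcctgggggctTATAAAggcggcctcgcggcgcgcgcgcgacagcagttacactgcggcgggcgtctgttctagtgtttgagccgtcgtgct
H2AFZ: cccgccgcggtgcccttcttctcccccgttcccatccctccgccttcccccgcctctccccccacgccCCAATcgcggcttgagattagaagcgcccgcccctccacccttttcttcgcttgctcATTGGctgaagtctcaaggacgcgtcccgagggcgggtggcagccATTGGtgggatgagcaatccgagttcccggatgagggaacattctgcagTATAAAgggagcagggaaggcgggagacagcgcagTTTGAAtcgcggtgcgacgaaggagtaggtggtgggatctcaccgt
LMNB1: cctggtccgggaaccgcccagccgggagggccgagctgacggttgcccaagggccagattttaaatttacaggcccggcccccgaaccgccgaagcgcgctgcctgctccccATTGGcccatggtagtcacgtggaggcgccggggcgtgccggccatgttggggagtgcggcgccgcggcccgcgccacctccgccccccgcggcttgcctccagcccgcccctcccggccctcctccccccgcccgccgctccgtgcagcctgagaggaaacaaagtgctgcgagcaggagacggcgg

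CCAAT was in 8 of the 9 windows chosen, 1 per gene, against 34.6% of the 35116 windows in the table. HMGB1, HMGB3, H2AFX and H2AFZ held it 3 or more times, a number reached by 3.26% of all windows. In HMGB1 the copies began at -103, -59 and -28 from the start, and in HMGB3 at -144, -101 and -55. H2AFX held 4 copies and H2AFZ 3, and both held a TATA box at -31. LMNB1, which was lower by more than H2AFX, held 1 copy at -138, as many as LMNA, HMGA1 and HMGN2, and LMNB2 held 0. TTTGAA was in the chosen windows of HMGB3, H2AFX, H2AFZ and LMNB2, 4 of 9 against 15.2% of all windows, with the H2AFZ copy at 5 bases from the start. TTTCCCGC was found in the chosen LMNA window alone, against 1.63% of all windows, and TTTGGCGC in 0 of 9, against 0.652%. TATAAA was in 3 of 9, against 11.5%. Several genes have more than 1 window, and the window holding most principal GENCODE transcript starts was used, or the first listed in a tie. All 3 HMGB1 windows tied, with 1 such start each, and the others held 1 and 0 copies of CCAAT, the former also TTTGAA at -246. The 3 LMNA windows tied at 0, and the others held neither CCAAT nor TTTCCCGC. The only HMGN2 window held 0 of its 2 principal starts. The other windows of HMGB3 and LMNB1 held 0 copies of CCAAT, and that of HMGA1 held 1. A match is a description of these letters and says nothing of binding.

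**Figure D4:**
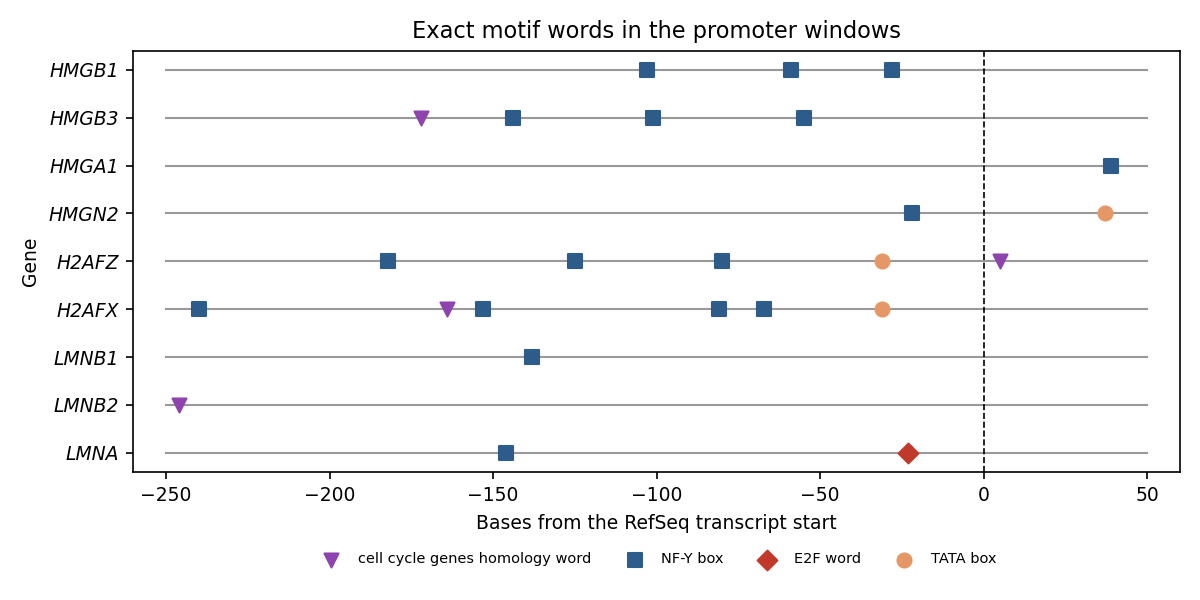
Position of exact motif words, in bases from the RefSeq transcript start, in the promoter windows of 9 genes, 1 line per gene. The chosen windows of HMGB1, HMGB3, H2AFX and H2AFZ hold 3 or 4 exact CCAAT words, marked as NF-Y boxes, and those of the other genes 1 or 0. The other HMGB1 windows, which tied with the one shown, hold 1 and 0.

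Several of these genes have many processed pseudogenes, copies to which reads of the parent can map. The table lists 121 pseudogenes named after the members, 42 of HMGB1, 36 of HMGN2, 29 of HMGB3, 8 of HMGA1, 5 of H2AFZ and 1 of HMGB2, and 35 had a level above 0. A mean of at least 1 FPKM was reached by 2. HMGB1P5, at chr3:22381819-22382929, was at 8.84 FPKM in control cells, 2.67 with shRNA1 and 2.79 with shRNA2, lower with both hairpins like its parent (log2 difference -1.53, SE 0.14, limma Benjamini-Hochberg adjusted p of 0.0784 over all genes). HMGN2P5, which lies within TJP1 on the other strand at chr15:29730713-29730985, was at 94.3, 76.8 and 88.3 FPKM, with wide intervals that start at 10.3, 0 and 0.494. Copies named after HMGN2 summed to 45.1%, 45.3% and 48.5% of its own FPKM in control, shRNA1 and shRNA2. Those of HMGB1 summed to 5.39%, 6.53% and 5.29%, and those of any other member to at most 2.87%. How reads were divided between HMGN2 and its copies is not stated, so its level is uncertain. The top copies of the remaining parents (HMGB2P1, HMGB3P22, HMGA1P8 and H2AFZP3) stayed at or below 0.826 FPKM.

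Lists of genes of the same machinery differed in direction. Some were mixed around the control, and others were mostly lower or mostly higher with both hairpins. Of all genes tested, 42.6% were lower and 42.4% higher with both hairpins. In the lists below 0 genes passed limma over all genes, so calls are those of limma over protein-coding genes (Benjamini-Hochberg adjusted p under 0.05), with levels in control, shRNA1 and shRNA2. Of 8 other high mobility group genes tested, 2 were lower and 3 higher with both hairpins (3 and 2 with the same total FPKM), the median was 0 (-0.07 with the same total) and 0 passed, with 1 at an unadjusted p under 0.05 over all genes (background 29.7%). HMGN1, another HMGN gene, was at 222, 173 and 198 FPKM and HMGXB3 at 14.8, 12.9 and 13.5. HMG20B, a subunit of a histone demethylase complex, was at 72.0, 85.5 and 77.5. HMGA2, the oncofetal partner of HMGA1, was at 0.329 FPKM or less and HMGB4 at 0 in each library. The HMGB1 receptors AGER, TLR2 and TLR4 were all at 0.226 FPKM or less, under the filter.

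Of 9 other replication-independent histone variants, 8 were lower and 1 higher with both hairpins (6 and 2 with gene medians made equal), with a median of -0.34. In this list 5 fell and 0 rose by limma over protein-coding genes, with 0 over all genes (6 at an unadjusted p under 0.05). The background is 11.3% lower in the former fit and 29.7% at an unadjusted p under 0.05 in the latter. CENPA, the centromeric H3 variant, was at 16.5, 7.55 and 8.66 FPKM. H3F3B, a gene of the H3.3 variant, was at 518, 332 and 363 FPKM, whereas H3F3A, which encodes the same protein, was at 36.8, 35.5 and 36.1. H2AFV, the second H2A.Z gene and closest relative of H2AFZ, also fell (146, 109 and 114), as did the linker histone genes H1FX (64.4, 50.9 and 47.1) and H1F0 (84.0, 68.7 and 64.2). The names H3F3A, H2AFV, H1FX and H1F0 were added after their values were seen. The macroH2A gene H2AFY2, higher with both, was at 18.0, 20.5 and 19.6 FPKM and H2AFY, the other one, at 182, 180.3 and 177.

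**Figure D5:**
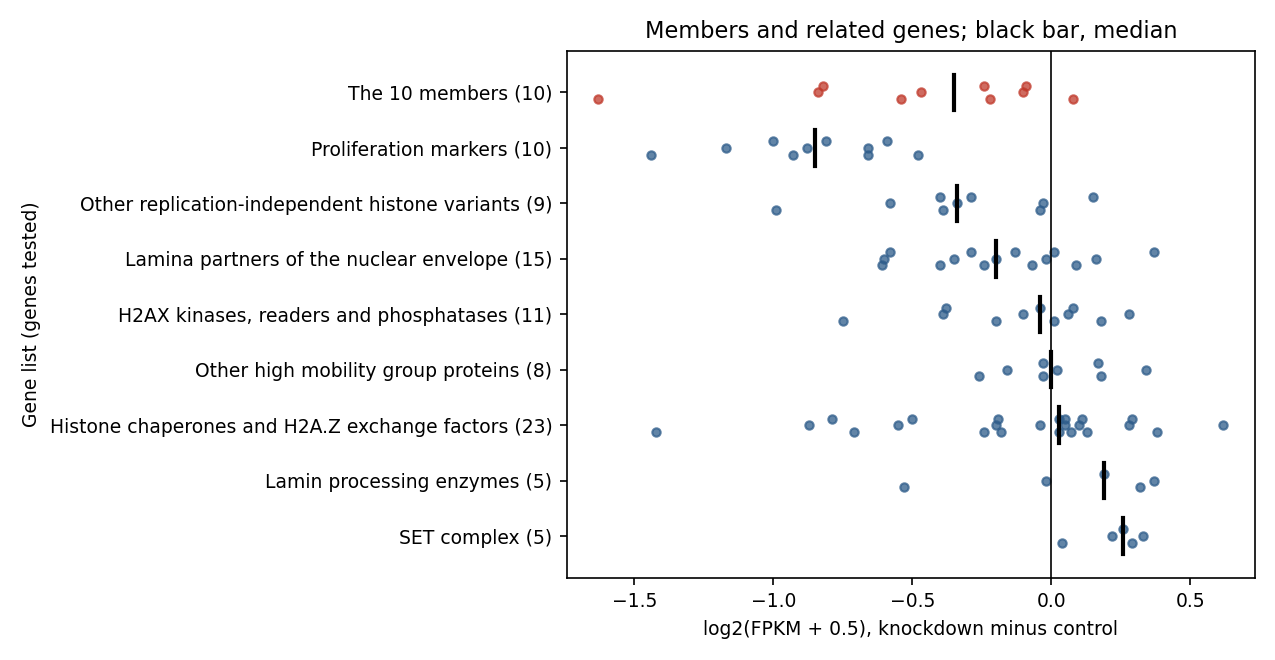
Difference from control, as the mean of both hairpins on the log2(FPKM + 0.5) scale, for the 10 members and for related gene lists, with the number of genes tested in brackets. Each point is a gene and the black bar the median, at -0.35 for the members, -0.85 for proliferation markers and 0.26 for the SET complex.

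Histone chaperones and H2A.Z exchange factors went both ways, 10 of 23 lower and 10 higher with both hairpins (13 and 5 with the same total FPKM), with a median of 0.03 (-0.05 with the same total). By limma over protein-coding genes 6 fell and 2 rose, and 0 passed over all genes (9 at an unadjusted p under 0.05). The shares over all features were 11.3% lower and 7.11% higher in the former fit and 29.7% at an unadjusted p under 0.05 in the latter, and the 2 of 23 that rose are near the background. The largest drop was in ANP32E, the chaperone that takes H2A.Z off chromatin, at 42.2, 13.0 and 18.3 FPKM, followed by ASF1B, a chaperone of newly made H3 and H4 (23.5, 11.8 and 13.6). As for HMGB1, the deposited intervals of ANP32E with both hairpins lay below that of the control, a state found in 0.221% of all genes tested. Of the H2A.Z exchange factors ZNHIT1, a subunit of the SRCAP complex, rose (23.9, 38.2 and 35.6), and so did RUVBL1, an ATPase of the same complex (61.1, 82.2 and 77.3). Of 11 H2AX kinases, readers and phosphatases, 5 were lower and 4 higher with both (5 and 2 with the same total FPKM, 4 and 6 with the same median), with a median of -0.04 (0.01 with the same median). By limma over protein-coding genes 2 fell and 0 rose, with 0 over all genes (3 at an unadjusted p under 0.05). Against 11.3% called lower and 29.7% at an unadjusted p under 0.05 in general, both counts of 11 are near the background. MDC1, which binds phosphorylated H2A.X, fell (4.55, 2.50 and 2.50 FPKM), and so did RNF168, a ubiquitin ligase recruited there (30.2, 22.4 and 23.3). The reader TP53BP1 (15.7, 19.0 and 19.4) and the kinase ATR (11.4, 12.9 and 13.1) were the most positive and did not pass.

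Of 15 lamina partners of the nuclear envelope, 10 were lower and 3 higher with both hairpins, with a median of -0.2 (-0.27 with the same total FPKM), and by limma over protein-coding genes 5 fell and 0 rose, with 0 over all genes (7 at an unadjusted p under 0.05, against 29.7% of all genes, and 11.3% called lower in the protein-coding fit). SUN2, which links the lamina to the cytoskeleton, was at 30.4, 20.3 and 19.3 FPKM, and NRM, the inner membrane protein nurim, at 5.63, 3.32 and 3.78. The others that fell, chosen after their values were seen, were SUN1 (88.3, 54.4 and 64.2), the lamin B receptor LBR (34.6, 25.4 and 26.6) and TMPO, the gene of the LAP2 proteins (154, 116 and 126). TMEM201 (1.84, 2.66 and 2.37) and TMEM43 (23.9, 27.4 and 26.3) were the most positive and did not pass. Among 5 lamin processing enzymes RCE1, the protease that trims farnesylated lamins, fell (13.2, 9.66 and 8.42 FPKM) and ZMPSTE24, which cleaves prelamin A, rose (46.8, 61.3 and 60.2). That is 1 of 5 in each direction, against 11.3% called lower and 7.11% called higher in the protein-coding fit. Over all genes 0 of the 5 passed, with 2 at an unadjusted p under 0.05, against 29.7%. The farnesyltransferase subunits FNTA (62.5, 71.5 and 71.2) and FNTB (7.37, 8.89 and 9.78) and the methyltransferase ICMT (47.7, 48.0 and 46.2) did not pass. The SET complex, which holds HMGB2 with nucleases and chaperones, had all 5 other genes higher with both (4 of 5 with the same total FPKM). Of all genes tested, 42.4% were higher with both. In the complex APEX1, an abasic site endonuclease, rose by limma over protein-coding genes (70.7, 91.1 and 87.5). That is 1 of 5, against 7.11% called higher in that fit. Over all genes 0 passed, with 1 of 5 at an unadjusted p under 0.05, against 29.7%. SET (562, 571 and 585), ANP32A (89.8, 107 and 103), NME1 (268, 347 and 311) and TREX1 (0.906, 1.39 and 0.99) did not pass.

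Proliferation markers were lower in the same libraries as HMGB1, HMGB2 and LMNB1. All 10 were below the control with both hairpins, with a median of -0.85, and their summed level was 964 FPKM in control cells, 512 with shRNA1 and 611 with shRNA2. All 10 fell by limma over protein-coding genes and 0 over all genes, where all 10 had an unadjusted p under 0.05, beside backgrounds of 11.3% and 29.7%. The proliferation antigen gene MKI67 was at 5.57, 2.71 and 3.24 FPKM, TOP2A, a topoisomerase of dividing cells, at 144, 67.4 and 90.1, and RRM2, a ribonucleotide reductase subunit, at 60.3, 19.7 and 24.5. Each of the 10 was lower with shRNA1 than with shRNA2, against 70.8% of all genes tested that were below the control with both. The part of proliferation in the differences of the chromatin and lamina genes was not tested.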

How the data were processed

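The authors deposited FPKM for 58039 genes in 1 control and 2 ERINA knockdown libraries, with lower and upper confidence bounds of each FPKM on the same scale, per the file headers. The submitters' processing notes list STAR, RSEM and GRCh38 without versions or roles. Not given in the sources used here were the program behind the FPKM, the annotation, any scaling between libraries and the use of strand. No library repeats another (0 genes with the same nonzero FPKM in any pair). Nothing says that the hairpin libraries came from separate cultures, so p-values measure only the spread between them.

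The members and lists were chosen with earlier results of these data known. Types and positions came from GENCODE release 29 (GRCh38), which matched 57435 genes (99.0%), and promoters from RefSeq (GRCh38.p14). ERINA was matched as a RefSeq synonym of LINC00992. Knockdown was compared with control on log2(FPKM + 0.5), which understates changes of low genes, for the 13112 genes whose FPKM averaged 1 or more, with limma 3.58.1 (lmFit, eBayes with trend) in R 4.3.3 and Benjamini-Hochberg adjustment at 0.05. The limma script was tested on simulated data in which every library, the control included, had the spread seen between the hairpins. That test cannot show how the lone control varies. Named genes were all members, the 2 most negative and 2 most positive genes of each list, whole lists of at most 5, any proliferation marker, and the top pseudogene of each parent. A gene that this rule names is not reported here. Tables used pandas 2.3.3 and numpy 2.4.6 in Python 3.11.15, and plots matplotlib 3.10.9. Alternatives were other pseudocounts, filters, scalings and eBayes options, protein-coding genes alone, and leaving out a hairpin. Protein sequences were not analysed here.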

Additional observations from a re-analysis of the deposited data

How the results depend on the processing

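HMGB1, HMGB2, HMGB3, HMGN2, H2AFZ, H2AFX, LMNB1 and LMNB2 kept a negative difference under the 9 tested alternatives and without either hairpin, HMGB1 at -1.7 to -1.58 over the tested ones. HMGA1 changed sign with the same total FPKM (-0.00011) and ran from -0.07 without shRNA1 to 0.22 without shRNA2. LMNA ran from -0.19 without shRNA1 to 0.0044 without shRNA2. Genes called lower and higher by limma numbered 35 and 11, with 3889 at an unadjusted p under 0.05. They were 0 and 0 with no filter on low values (26013 genes tested, 5039 at an unadjusted p under 0.05), 110 and 65 with the same total FPKM, 595 and 430 with robust eBayes, 1299 and 821 with protein-coding genes alone, and 30 and 6 without the trend. The share of lower calls went from 76.1% to 62.9%, 58.0% and 61.3% with the same total, robust eBayes and protein-coding genes alone. Members called lower went from 0 to 1 (HMGB1), 4 (HMGB1, HMGB2, H2AFX and LMNB1) and 5 under the same 3 settings, and to 0 under the other 6. The cause was not tested. The same total FPKM shifted the median of all genes by -0.07 and of the members to -0.43, and 9 members were then below the control with both hairpins. Without either hairpin the members' median ran from -0.39 to -0.3, and 8 (without shRNA2) to 10 (without shRNA1) of them were lower. The 1 member with clear intervals became 0 with bounds widened 1.5 times, which left 2 of all genes. No paired analysis was possible because the control has 1 library and the groups share fewer than 2 replicate numbers. Leaving out a hairpin leaves 1 library against 1, so no test was run there. The control library has no replicate, and the counts behind each FPKM are not known.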
